A study of Mus musculus with 20 samples.

Results

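Aminoacyl-tRNA synthetases join each amino acid to its transfer RNA, the charging step that supplies every ribosome. The cytosol and the mitochondrion each need a set, and nuclear genes encode both. Most cytosolic enzymes carry the plain symbol of their amino acid, and most mitochondrial enzymes the same symbol ending in 2. Several cytosolic enzymes sit together in the multisynthetase complex, held by scaffold proteins. When charging fails, uncharged tRNA can activate the kinase GCN2 and, through the integrated stress response, the transcription factor ATF4, which is known to raise many synthetase genes.

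The members were all protein-coding genes whose symbol is 1 capital letter followed by ars, with or without a final 1 or 2, together with Eprs, Farsa and Farsb. This gave 37 of the 39179 genes in the tables, 20 cytosolic and 17 mitochondrial, and all 37 passed the filter on low counts that left 12671 genes to test. Mars1 is listed as Mars in the annotation used. Gars and Kars, which supply glycyl- and lysyl-tRNA in both compartments, were counted as cytosolic.

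RNA sequencing was done on immortalised epithelial cells from the kidney of C57BL/6J mice. The gene Fh1 codes for fumarate hydratase, which turns fumarate into malate in the TCA cycle. The 4 groups of 5 libraries were Fh1_fl_fl (genotype given as Fh1 wild type), clone1 and clone19 (each 1 clone, genotype given as Fh1 deletion) and Rec (Fh1 wild type re-expressed). All 4 groups grew in DMEM with 10% serum and 0.05 mg/mL uridine. The labels do not say which part of Fh1 was removed, from which clone Rec was made, or whether the 5 libraries of a group are separate cultures, so p-values here speak for the spread among these libraries alone, and that spread may be technical.

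Libraries held 5988447 to 18972176 gene counts (median 10485784). The Fh1 transcript averaged 92.4 ± 6.16 CPM (counts relative to the library total) in Fh1_fl_fl, against 113 ± 5.94 in clone1, 84.8 ± 7.32 in clone19 and 71.3 ± 7.08 for Rec (SD, n = 5). A count over the whole gene does not check the deletion. All 9 kidney epithelial markers examined were detected in every group, and their summed level ran from 2840 to 3250 CPM in Fh1_fl_fl, 2460 to 2990 in clone1, 1840 to 2100 in clone19 and 3790 to 4240 for Rec. Single epithelial markers moved further: Pax2 averaged 272, 45.4, 42 and 96 CPM and Epcam 439, 86.7, 226 and 422 CPM in this order. Others rose in the clones: Pax8 averaged 194, 371, 233 and 185 CPM and Krt19 348, 639, 458 and 682 CPM. Against Fh1_fl_fl, 4 of the 9 were called higher and 4 lower in clone1, and 3 and 6 in clone19. Over all tested genes 38% were higher and 40.5% lower in clone1, and 36.8 and 36.1% in clone19. Summed endothelial markers ran from 0.143 to 0.539 CPM in Fh1_fl_fl, 1.22 to 2.71 in clone1, 7.14 to 9.8 in clone19 and 0.637 to 0.982 for Rec. In clone19 most of this sum was Cdh5, at 7.92 CPM beside 0.172 for Pecam1 and 0.035 for Kdr. Summed leukocyte markers ran from 3.87 to 4.88, 7.7 to 10.2, 17.7 to 21 and 2.13 to 4.12 CPM in the same order, with Lyz2 at 0 in Rec. Most of this sum was Cd68, at 3.97, 7.61, 18.1 and 2.62 CPM, beside 0.519, 0.692, 0.599 and 0.456 for Ptprc. The fibroblast and pericyte markers summed to 0.932 to 1.56, 3.21 to 5.39, 2.88 to 7.13 and 1.04 to 1.4 CPM, and Pdgfrb was at 0 in every library. The podocyte marker Nphs1 reached at most 0.187 CPM. The marker levels moved with the groups, and their part in the results below was not tested. Clone19 replicate 3 stands apart: the ribosomal RNA locus Gm42418 reached 91500 CPM there and 2100 to 4490 CPM in the other 19 libraries.

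One letter pattern occurred in the promoters of several cytosolic members. RefSeq promoter windows on GRCm38.p6, from 250 bases before to 50 bases after the annotated start, were found for 27 of 37 members (13 cytosolic, 14 mitochondrial). The windows of the other members, Cars, Hars, Lars, Nars, Rars, Vars, Wars, Hars2 and Pars2 among them, were not analysed here. TGATGNAA, the core of the C/EBP-ATF response element to which ATF4 binds with its partners, was searched on both strands. It occurred in 5 of 13 cytosolic members with a window (38.5%) and in 0 of 14 mitochondrial members. Over all 32851 windows the share was 3.97%, counted by window and not by gene. The 5 genes with a match rose in both clones and in Rec, as most cytosolic members did. Among cytosolic members with a window but no match, Dars, Eprs, Farsb, Kars and Sars were also called higher in both clones. Farsa and Qars, also without a match, were lower in both, and Mars1 was higher in clone19 alone. The stretches around the TGATGNAA matches are printed here. Capitals mark the match, read on the gene's strand from 5′ to 3′, so that a match on the other strand appears as its reverse complement. They lie at chr8:111033704-111033871 on the plus strand (Aars, with 2 matches), chr6:55037945-55038004 on the plus strand (Gars), chr13:49682111-49682159 on the plus strand (Iars), chr15:11399640-11399699 on the minus strand (Tars) and chr4:129189880-129189932 on the plus strand (Yars).
Aars: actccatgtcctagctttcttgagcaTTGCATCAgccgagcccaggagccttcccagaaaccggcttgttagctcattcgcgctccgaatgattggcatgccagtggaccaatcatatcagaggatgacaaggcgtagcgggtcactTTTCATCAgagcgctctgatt
Gars: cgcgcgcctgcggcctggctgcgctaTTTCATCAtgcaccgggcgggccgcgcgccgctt
Iars: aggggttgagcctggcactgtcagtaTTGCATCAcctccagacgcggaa
Tars: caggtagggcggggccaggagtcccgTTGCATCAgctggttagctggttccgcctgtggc
Yars: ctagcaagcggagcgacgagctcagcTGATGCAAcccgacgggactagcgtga
Aars, Gars, Iars, Tars and Yars charge alanine, glycine, isoleucine, threonine and tyrosine. The matches began 112 bases before and at base 10 after the start in Aars, and 30 bases before it in Gars. In Tars the match began 15 bases before the start, in Iars at base 8 and in Yars at base 4 after it. The NRF1 motif occurred in Farsb, Kars and Tars (3 of 13 cytosolic members, 23.1%) and in Iars2 and Mars2 (2 of 14 mitochondrial, 14.3%). Among all windows its share was 4.6%. The E-box CACGTG occurred in Aars, Farsb, Iars and Tars (4 of 13, 30.8%) and in Ears2 (1 of 14, 7.14%), against 7.15% of all windows. In these windows no match of 1 motif shared bases with a match of another. A match describes letters only, and no factor binding was measured.

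Levels between genes are compared per length, as counts per kilobase of exon scaled to the same sum in every library (TPM). Cytosolic synthetases were the more abundant class in each group, with a median over members of 142 TPM in Fh1_fl_fl, 219 in clone1, 187 in clone19 and 237 for Rec, against mitochondrial medians of 11.9, 16.4, 12.6 and 9.77 TPM. Gars and Nars were the 2 highest members in every group apart from Lars2, at 394 and 267 TPM in Fh1_fl_fl and 1250 and 755 TPM in clone1. Mars2, which charges mitochondrial methionine, was lowest in all 4 groups, at 2.9, 1, 1.68 and 5.76 TPM. These ranks depend on the length used, that of all annotated exons joined, which was 11294 bases for Mars2. In CPM, Mars2 averaged 8.85 in Fh1_fl_fl and 19.9 in Rec, above Sars2 at 6.25 and 6.84. Of the 36 neighbouring pairs in the order of levels, 25 overlapped between libraries in Fh1_fl_fl, 25 in clone1, 32 in clone19 and 29 for Rec. These ranges alone thus do not settle the order of most neighbours. The 2 genes of a pair were not compared within each library. Mean levels of all 20 cytosolic members lay above those of all mitochondrial members other than Lars2 in Fh1_fl_fl, clone19 and Rec, and 19 did in clone1. There Farsa had 44.1 TPM and the highest of those mitochondrial members, Iars2, had 46.7 TPM.

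Summed over the class, the cytosolic synthetases gave 3160 ± 198 TPM in Fh1_fl_fl, against 5550 ± 169 in clone1, 4730 ± 639 in clone19 and 5320 ± 257 for Rec (SD, n = 5). Every library of clone1, clone19 and Rec lay above the highest Fh1_fl_fl library, which had 3470 TPM. The lowest of them was clone19 replicate 3 with 3740 TPM, and without it clone19 averaged 4980 ± 370 TPM (SD, n = 4). The 16 mitochondrial members without Lars2 summed to 285 ± 6.22, 268 ± 5.29, 262 ± 24.7 and 282 ± 11.8 TPM in the same order of groups. All clone1 libraries (260 to 274 TPM) lay below all Fh1_fl_fl libraries (279 to 292 TPM), while clone19 and Rec overlapped with Fh1_fl_fl. These sums depend on the scaling of TPM to 1 sum per library. With counts scaled to library totals, the median log2 fold change of clone1 against Fh1_fl_fl was -0.17 over all tested genes. It was -0.12 over the 17 mitochondrial members, Lars2 included. A median gives each member equal weight and a sum does not. Whether the lower clone1 sums set this class apart from other genes was thus not tested. Within a library the cytosolic sum was 11.1 ± 0.485 times the mitochondrial sum in Fh1_fl_fl, 20.7 ± 0.958 times in clone1, 18 ± 0.847 times in clone19 and 18.9 ± 0.661 times for Rec. This ratio does not depend on scaling between libraries, and its values in Fh1_fl_fl (10.6 to 11.9) did not overlap with those of the other groups (16.8 to 22.4). In bulk RNA, fewer cells of a type and less RNA per cell cannot be told apart.

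**Figure D1:**
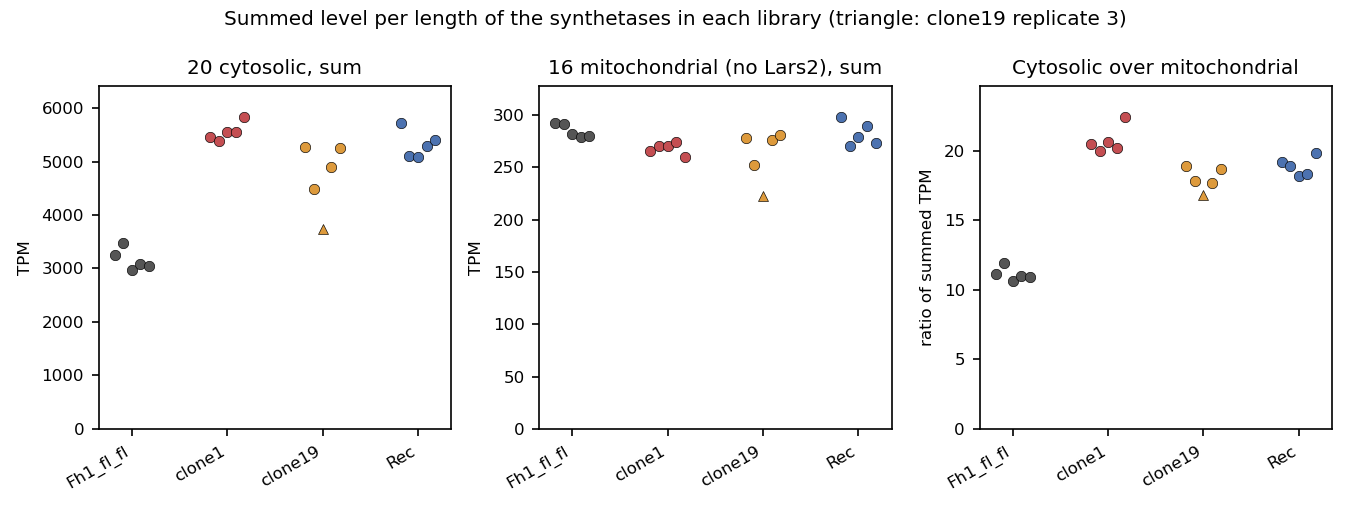
Summed level per length (TPM) of the 20 cytosolic synthetases, of the 16 mitochondrial synthetases without Lars2, and the ratio of both sums, with 1 point per library and the groups along the horizontal axis. The triangle is clone19 replicate 3. The ratio lies between 10.6 and 11.9 in Fh1_fl_fl and between 16.8 and 22.4 in the other 15 libraries.

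The comparison of each clone with Fh1_fl_fl asks how cells labelled Fh1 deletion differ from those labelled wild type. In clone1, 17 of 20 cytosolic members were higher and 2 lower, with a median log2 fold change of 0.74 (a fold of 1.67), while 5 of 17 mitochondrial members were higher and 7 lower, with a median of 0.02. In the same comparison 38% of all tested genes were called higher and 40.5% lower, with a median log2 fold change of -0.03. In clone19, 18 cytosolic members were higher and 2 lower (median 0.66, a fold of 1.58), and 5 mitochondrial members were higher and 5 lower (median 0.01). There the background was 36.8% of all tested genes higher and 36.1% lower, with a median of 0. Both clones were compared with the same 5 Fh1_fl_fl libraries.

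Read without a model, 17 cytosolic members in clone1 had all 5 libraries above all Fh1_fl_fl libraries, where 31.3% of all genes did, and 2 had all below, where 34.3% did. Among mitochondrial members 3 lay wholly above and 6 wholly below. In clone19, 17 cytosolic members lay wholly above (background 29.3%) and 2 wholly below (29.7%), and of the mitochondrial members 2 lay wholly above and 3 wholly below. In either direction 78.6% of all tested genes were called in clone1 and 72.9% in clone19. The cytosolic members were mostly higher against a near-even background, and the mitochondrial members divided about evenly, as all genes did.

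The mitochondrial medians of the clones lay close to 0 and took the other sign with library totals as scaling, while the cytosolic medians and the mitochondrial median of Rec stayed positive. With library totals in place of TMM scaling, the median of all tested genes moved by -0.14 in clone1, -0.12 in clone19 and -0.13 in Rec against Fh1_fl_fl. The cytosolic medians became 0.6, 0.53 and 0.75 and the mitochondrial medians -0.12, -0.11 and 0.1. The share of called genes that were higher, over the whole table, went from 48.4 to 40.1% in clone1, from 50.5 to 40.7% in clone19 and from 47.2 to 36.5% in Rec. The cytosolic counts became 15 higher and 2 lower in clone1, 16 and 2 in clone19, and 17 and 1 in Rec, and the mitochondrial counts 3 and 7, 3 and 6, and 5 and 3. Relative to the median of all genes the cytosolic medians were 0.77, 0.65 and 0.91 and the mitochondrial medians 0.05, 0.01 and 0.26 under library totals.

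**Figure D2:**
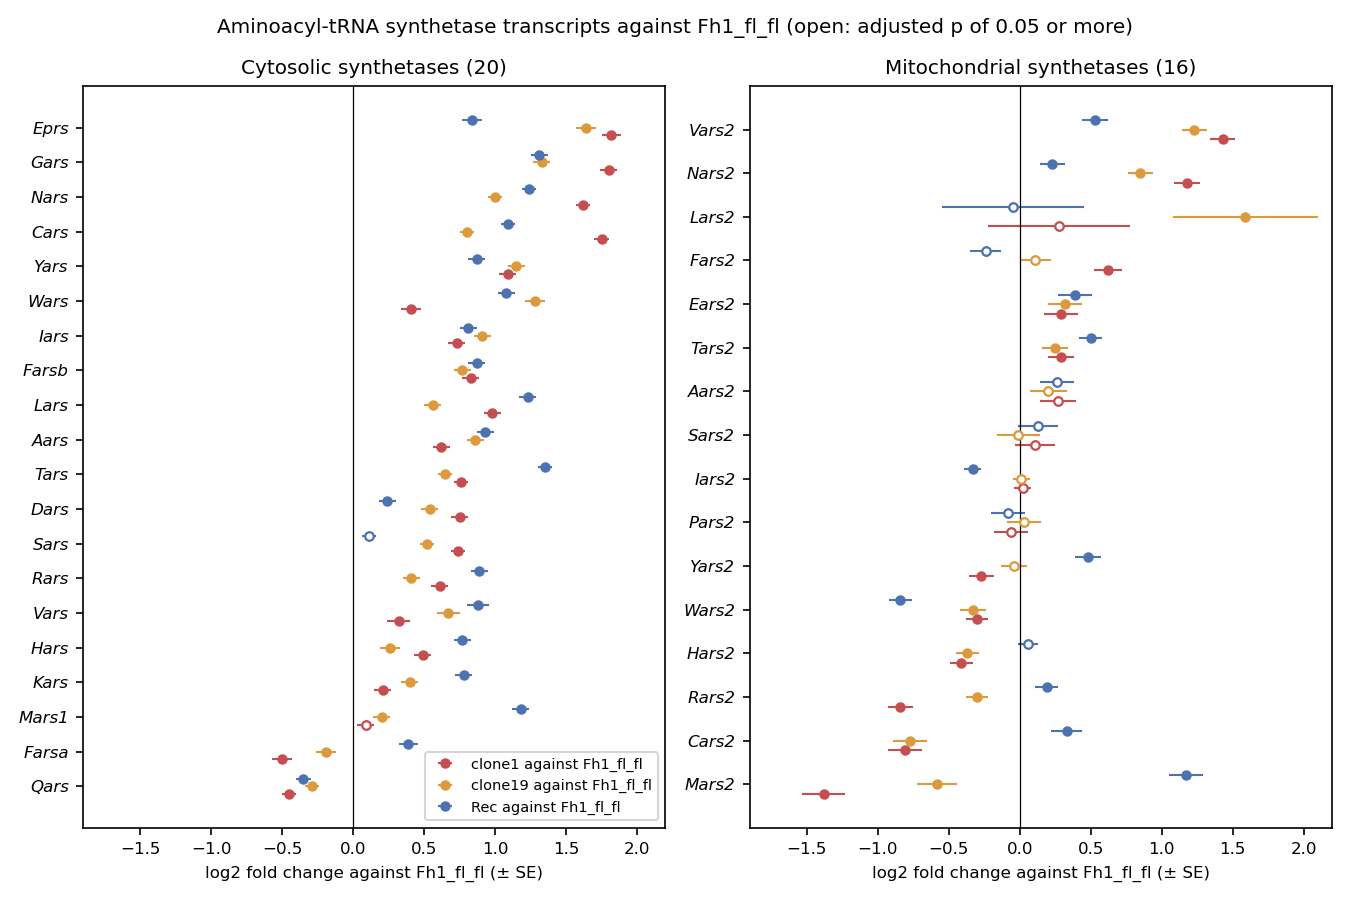
Log2 fold change against Fh1_fl_fl (± SE, edgeR fit over all 20 libraries) of the 20 cytosolic (left) and of 16 mitochondrial (right) synthetases in clone1, clone19 and Rec, with open points for an adjusted p of 0.05 or more. Cytosolic points lie mostly to the right of 0, apart from Qars and from Farsa in the clones, and mitochondrial points lie on both sides, from -1.38 for Mars2 to 1.43 for Vars2 in clone1.

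Eprs, the bifunctional enzyme of the multisynthetase complex that charges glutamate and proline, had the highest fold changes of all members in both clones. Eprs (ENSMUSG00000026615; GRCm38 chromosome 1, 185363044 to 185428360, plus strand) gave 318, 340, 290, 302 and 295 CPM for Fh1_fl_fl, 942, 1070, 1090, 1150 and 1190 for clone1, 1060, 908, 906, 911 and 1040 for clone19, and 629, 500, 509, 556 and 572 for Rec. The Fh1_fl_fl libraries are lowest, Rec lies between, and neither overlaps with the clones. On the log2 scale clone1 exceeded Fh1_fl_fl by 1.82 and clone19 by 1.64 (SE 0.07 each, adjusted p = 4.69e-18 and 7.64e-17), and Rec exceeded it by 0.84 (SE 0.07, adjusted p = 7.22e-11). Rec was lower than clone1 by a log2 of -0.98 (SE 0.07) and than clone19 by -0.8 (SE 0.07).

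Gars, the glycine enzyme of cytosol and mitochondrion (ENSMUSG00000029777; chromosome 6, 55038007 to 55079500, plus strand), gave 332, 360, 314, 342 and 311 CPM for Fh1_fl_fl, 1270, 1090, 1110, 1070 and 1220 for clone1, 878, 845, 790, 847 and 826 for clone19, and 817, 857, 797, 804 and 851 for Rec. Clone1 is highest without overlap, and clone19 and Rec cover the same range well above Fh1_fl_fl. The rise over Fh1_fl_fl was a log2 of 1.8 for clone1, 1.33 for clone19 and 1.31 for Rec (SE 0.06 each, adjusted p = 3.62e-20, 3.79e-17 and 6.52e-17). Between Rec and clone19 the difference was -0.02 (SE 0.06, adjusted p = 0.752). Kars, the lysine enzyme, is the other member that serves both compartments (ENSMUSG00000031948; chromosome 8, 111993443 to 112011323, minus strand). It gave 313, 333, 317, 325 and 304 CPM for Fh1_fl_fl, 404, 350, 354, 349 and 387 for clone1, 448, 406, 397, 426 and 423 for clone19, and 548, 602, 507, 532 and 538 for Rec. Here Rec is highest and clear of all other libraries. Kars rose by a log2 of 0.21 in clone1, 0.4 in clone19 and 0.78 in Rec (SE 0.06 each, adjusted p = 0.00119, 4.44e-07 and 2.09e-12). The clone1 call was lost with library totals (0.07, adjusted p = 0.3).

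Nars, which charges asparagine (ENSMUSG00000024587; chromosome 18, 64499647 to 64516652, minus strand), gave 305, 344, 305, 321 and 295 CPM for Fh1_fl_fl, 997, 926, 963, 957 and 994 for clone1, 656, 660, 582, 617 and 632 for clone19, and 761, 754, 681, 750 and 773 for Rec. The 4 groups do not overlap, in the order Fh1_fl_fl, clone19, Rec, clone1. Against Fh1_fl_fl, Nars rose by a log2 of 1.62, 1 and 1.24 in clone1, clone19 and Rec (SE 0.05 each). Cars, the cysteine enzyme (ENSMUSG00000010755; chromosome 7, 143557230 to 143600090, minus strand), gave 116, 123, 110, 117 and 111 CPM for Fh1_fl_fl, 402, 369, 380, 390 and 393 for clone1, 204, 194, 204, 196 and 205 for clone19, and 241, 262, 234, 238 and 252 for Rec. It has the same order of groups without overlap, and it rose by 1.75, 0.8 and 1.09 (SE 0.05 each). Clone19 was lower than clone1 by a log2 of -0.95 for Cars (SE 0.05, adjusted p = 3.56e-15) and -0.62 for Nars (SE 0.05, adjusted p = 1.15e-10).

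Wars, the tryptophan enzyme (ENSMUSG00000021266; chromosome 12, 108860030 to 108894174, minus strand), went the other way between the clones. It gave 68.7, 79.5, 65.7, 61.8 and 65.6 CPM for Fh1_fl_fl, 92.4, 91.1, 82.8, 90.8 and 95.4 for clone1, 160, 149, 171, 169 and 181 for clone19, and 144, 151, 138, 145 and 143 for Rec. Every library of clone19 and Rec lies above clone1, and clone19 and Rec overlap between 149 and 151 CPM. Wars rose by a log2 of 0.41 in clone1, 1.28 in clone19 (SE 0.07 each) and 1.08 in Rec (SE 0.06), and clone19 exceeded clone1 by 0.87 (SE 0.07, adjusted p = 5.66e-12). Yars, the tyrosine enzyme (ENSMUSG00000028811; chromosome 4, 129189760 to 129219607, plus strand), gave 80.8, 90.6, 77.9, 79 and 76.3 CPM for Fh1_fl_fl, 184, 163, 164, 173 and 176 for clone1, 183, 168, 183, 173 and 188 for clone19, and 149, 154, 144, 144 and 148 for Rec. The clones overlap with each other, and Rec falls between them and Fh1_fl_fl without overlap. Yars rose by 1.09 in clone1, 1.15 in clone19 and 0.87 in Rec on the log2 scale (SE 0.06 each).

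Tars, the threonine enzyme (ENSMUSG00000022241; chromosome 15, 11382301 to 11399665, minus strand), had the largest rise of all members in Rec. Its libraries gave 224, 254, 219, 224 and 213 CPM for Fh1_fl_fl, 371, 371, 385, 384 and 410 for clone1, 369, 354, 347, 355 and 351 for clone19, and 573, 597, 555, 576 and 582 for Rec. Rec lies above both clones and the clones above Fh1_fl_fl, without overlap. Its rise over Fh1_fl_fl was a log2 of 1.35 in Rec (SE 0.05, adjusted p = 4.22e-18), beside 0.76 in clone1 and 0.65 in clone19 (SE 0.05 each).

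**Figure D3:**
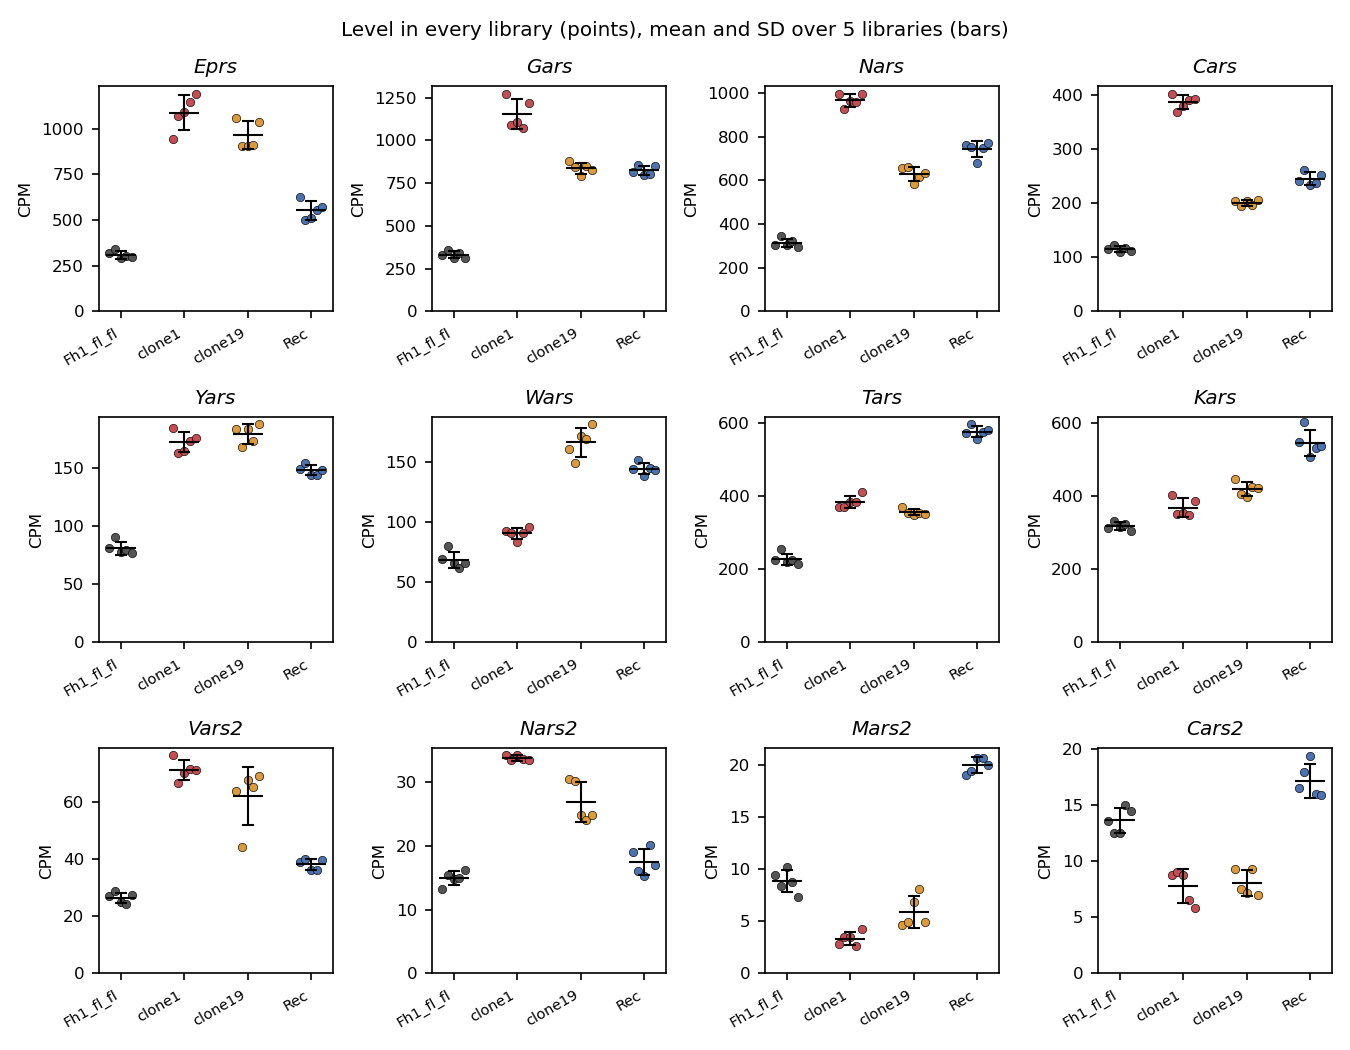
CPM of 12 synthetases in every library (points) with the mean and SD over 5 libraries (bars), by group. Eprs is highest in the clones, Tars and Kars are highest in Rec, and Mars2 and Cars2 are low in both clones and highest in Rec.

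The remaining cytosolic members that rose in clone1 had log2 fold changes between 0.32 for Vars and 0.98 for Lars, and those that rose in clone19 between 0.2 for Mars1 and 0.91 for Iars. Vars and Lars charge valine and leucine, and Mars1 and Iars methionine and isoleucine. With library totals the call for Vars was lost in clone1 (0.18, adjusted p = 0.0648), as were those for Hars (0.13, adjusted p = 0.0934) and Mars1 (0.07, adjusted p = 0.324) in clone19. Mars1 was not called in clone1, with a log2 fold change of 0.09 (SE 0.06, adjusted p = 0.177) that became -0.05 with library totals and 0.15 (adjusted p = 0.015) without Fh1_fl_fl replicate 2. Its levels were 163 ± 16.6, 173 ± 7.47, 187 ± 9.55 and 369 ± 12.8 CPM in Fh1_fl_fl, clone1, clone19 and Rec. The 3′ end of Mars1 shares 68 bases with Ddit3 on the opposite strand. Ddit3 encodes the stress transcription factor CHOP and went from 13.7 ± 1.14 to 342 ± 23.1, 206 ± 14.4 and 37.6 ± 3.77 CPM in the same order. With the strand setting of the counting not given, reads in the shared stretch cannot be told apart.

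Qars and Farsa are the cytosolic members that fell in the clones. Qars charges glutamine and has no mitochondrial counterpart of its own, since mitochondrial glutaminyl-tRNA is made by an amidotransferase. It gave 212 ± 6.25 CPM in Fh1_fl_fl, against 155 ± 4.23 in clone1, 173 ± 7.79 in clone19 and 166 ± 8.7 for Rec, with log2 fold changes of -0.45, -0.29 and -0.35 (SE 0.05 each). All libraries of the other groups lay below all Fh1_fl_fl libraries. Farsa and Farsb encode the alpha and beta subunits of 1 enzyme, which charges phenylalanine, and their transcripts moved apart in both clones. Farsa gave 83.5 ± 2.41, 59.1 ± 7.35, 73.3 ± 5.95 and 110 ± 7.97 CPM, and Farsb 99.8 ± 2.64, 177 ± 13.4, 170 ± 10.4 and 183 ± 7.3 CPM, in Fh1_fl_fl, clone1, clone19 and Rec. Farsa changed by a log2 of -0.5, -0.19 and 0.39 in clone1, clone19 and Rec (SE 0.07 each, adjusted p = 8.22e-07, 0.0229 and 2.45e-05), and Farsb by 0.83, 0.77 and 0.87 (SE 0.06 each). The clone19 call for Farsa was lost without Fh1_fl_fl replicate 1 (-0.18, adjusted p = 0.0505), Fh1_fl_fl replicate 5 (-0.17, adjusted p = 0.0601) or clone19 replicate 2 (-0.14, adjusted p = 0.0854). Farsb shares 2315 bases of its span with Sgpp2 on the opposite strand.

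Among the mitochondrial enzymes apart from Lars2, those for valine and asparagine rose most in the clones. Vars2 (ENSMUSG00000038838; chromosome 17, 35655634 to 35667592, minus strand) gave 27, 28.7, 25, 24.4 and 27.4 CPM for Fh1_fl_fl, 76.4, 66.6, 70.1, 71.6 and 71.2 for clone1, 64, 44.3, 67.7, 65.2 and 69.1 for clone19, and 39, 40.1, 36.3, 36.2 and 39.7 for Rec. Both clones lie above Rec and Rec above Fh1_fl_fl, with clone19 replicate 2 the lowest library of the clones. Vars2 rose by a log2 of 1.43 in clone1, 1.23 in clone19 and 0.53 in Rec (SE 0.09 each, adjusted p = 2.94e-14, 1.57e-12 and 6.24e-06). Nars2 (ENSMUSG00000018995; chromosome 7, 96951505 to 97064758, plus strand) gave 13.3, 15.4, 14.8, 15 and 16.2 CPM for Fh1_fl_fl, 34.2, 33.4, 34.3, 33.6 and 33.4 for clone1, 30.5, 30.1, 24.9, 24.1 and 24.8 for clone19, and 19, 16.1, 15.2, 20.2 and 17 for Rec. Clone1 is highest, clone19 next, and Rec overlaps with Fh1_fl_fl. Nars2 rose by 1.18 in clone1, 0.85 in clone19 and 0.23 in Rec on the log2 scale (SE 0.09 each). The Rec call was lost without Fh1_fl_fl replicate 1 (0.19, adjusted p = 0.0685), Rec replicate 1 (0.2, adjusted p = 0.063) or Rec replicate 4 (0.19, adjusted p = 0.0601), and with library totals (0.1, adjusted p = 0.365).

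The mitochondrial enzymes for methionine and cysteine fell in the clones and rose in Rec. Mars2 (ENSMUSG00000046994; chromosome 1, 55237177 to 55248470, plus strand) gave 9.46, 8.41, 10.2, 8.81 and 7.35 CPM for Fh1_fl_fl, 2.79, 3.49, 3.52, 2.6 and 4.25 for clone1, 4.65, 4.95, 6.83, 8.07 and 4.91 for clone19, and 19, 19.4, 20.7, 20.7 and 20 for Rec. Rec is clear of all other groups, clone1 is lowest, and clone19 overlaps with Fh1_fl_fl through its replicate 4. In clone1 Mars2 changed by a log2 of -1.38 (SE 0.15, adjusted p = 3.44e-09) and in clone19 by -0.58 (SE 0.14, adjusted p = 0.000593), while Rec was higher by 1.17 (SE 0.12, adjusted p = 1.1e-09). Cars2 (ENSMUSG00000056228; chromosome 8, 11513977 to 11550783, minus strand) gave 13.6, 12.5, 12.5, 15 and 14.5 CPM for Fh1_fl_fl, 8.76, 9.01, 8.8, 6.57 and 5.81 for clone1, 9.29, 7.49, 7.18, 9.25 and 6.96 for clone19, and 16.5, 17.9, 19.4, 16 and 15.9 for Rec. The clones overlap with each other below Fh1_fl_fl, and Rec lies above it. Cars2 changed by -0.81 in clone1, -0.77 in clone19 (SE 0.12 each) and 0.33 in Rec (SE 0.11, adjusted p = 0.0082), and the Rec call was lost with library totals (0.19, adjusted p = 0.123). Cars2 shares 984 bases of its span with Naxd on the opposite strand.

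The other mitochondrial members, Lars2 aside, had smaller mean changes over both clones. Rars2, the arginine enzyme, fell by 0.84 in clone1 and by 0.3 in clone19 on the log2 scale, and Hars2, the histidine enzyme, by 0.41 and by 0.37. Wars2, for tryptophan, fell by 0.3 and by 0.33, and in Rec by 0.84. Fars2, for phenylalanine, rose by 0.62 in clone1 (SE 0.1), from 15 ± 1.26 to 23.1 ± 3.09 CPM, and had 16.3 ± 2.51 CPM in clone19. Clone19 and clone1 differed by -0.51 for Fars2 (adjusted p = 0.000216). Yars2 fell by 0.27 in clone1 (adjusted p = 0.0104), which was lost without Fh1_fl_fl replicate 5 (-0.2, adjusted p = 0.065) or clone1 replicate 5 (-0.22, adjusted p = 0.0503). Tars2 and Ears2, for threonine and glutamate, rose by 0.29 each in clone1 and by 0.25 and 0.32 in clone19. With library totals none of these 4 calls held, with adjusted p = 0.141 and 0.288 in clone1 and 0.218 and 0.16 in clone19 for Tars2 and Ears2. The Ears2 calls were also lost without Fh1_fl_fl replicate 2 (0.25, adjusted p = 0.0737), clone1 replicate 1 (0.25, adjusted p = 0.0739) or clone1 replicate 4 (0.24, adjusted p = 0.0862) in clone1. In clone19 they were lost without Fh1_fl_fl replicate 2 (0.29, adjusted p = 0.0509), Fh1_fl_fl replicate 3 (0.29, adjusted p = 0.0526) or clone19 replicate 5 (0.27, adjusted p = 0.0757). Aars2, Iars2, Pars2 and Sars2 were called in neither clone, although Aars2 in clone1 (adjusted p = 0.0522) passed under 13 of 28 alternative settings. Iars2 had 120 ± 9.33, 122 ± 4.17 and 121 ± 5.74 CPM in Fh1_fl_fl, clone1 and clone19, while Aars2, Pars2 and Sars2 stayed between 6.25 and 14.4 CPM in these group means.

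Lars2, the mitochondrial leucine enzyme, is known to collect reads of ribosomal RNA, so its counts do not measure the enzyme's transcript alone. Lars2 (ENSMUSG00000035202; chromosome 9, 123366927 to 123462666, plus strand) gave 2390, 2180, 3550, 2540 and 2320 CPM for Fh1_fl_fl, 1570, 3490, 3240, 3800 and 3650 for clone1, 2040, 1870, 29700, 2680 and 2630 for clone19, and 2900, 2480, 2010, 2610 and 2530 for Rec. Without clone19 replicate 3 the groups overlap throughout, and in that library Gm42418 and Gm26917, the loci that collect ribosomal RNA reads, reached 91500 and 195 CPM against medians of 3200 and 12.7 CPM over the other 19. The log2 fold change of Lars2 in clone19 was 1.59 (SE 0.51, adjusted p = 0.00758) with all libraries and -0.16 (adjusted p = 0.423) without that replicate. The difference of clone19 from clone1 likewise went from 1.31 (SE 0.51, adjusted p = 0.0274) to -0.48 (adjusted p = 0.0223), and was 1.1 (adjusted p = 0.0705) without clone1 replicate 1. In clone1 and Rec the log2 fold changes were 0.28 (SE 0.5, adjusted p = 0.618) and -0.05 (SE 0.5, adjusted p = 0.939). Without clone19 replicate 3, clone19 had 18 cytosolic members higher and 2 lower and 4 mitochondrial members higher and 5 lower. Leaving Lars2 out, the mitochondrial medians were -0.02 in clone1, 0 in clone19 and 0.24 in Rec.

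**Figure D4:**
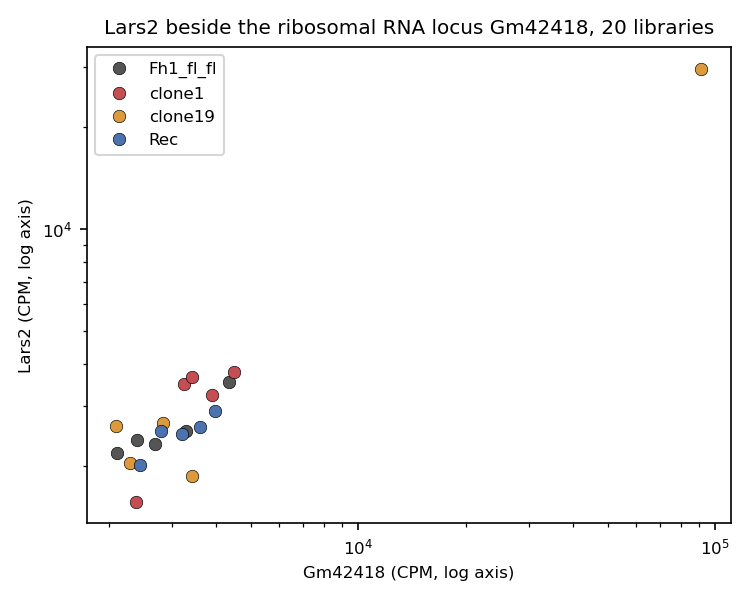
Lars2 against the ribosomal RNA locus Gm42418 in each of the 20 libraries (CPM, both axes logarithmic), coloured by group. Clone19 replicate 3 stands alone at 91500 CPM of Gm42418 and 29700 CPM of Lars2, and the other 19 libraries lie between 1570 and 3800 CPM of Lars2.

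Enzymes for the same amino acid in the 2 compartments can be set side by side in 18 pairs, with Fars2 and Eprs in 2 pairs each. In clone1 the cytosolic member had the larger log2 fold change in 16 pairs. Both members were called in 12 pairs, with opposite signs in 7 and the same sign in 5. The opposite pairs included Cars with Cars2, Hars with Hars2, Rars with Rars2, Wars with Wars2, Yars with Yars2, and Farsa with Fars2. The mitochondrial member had the larger value for valine, with 0.32 for Vars and 1.43 for Vars2, and for Farsa with Fars2. In clone19 the cytosolic member was the higher one in 15 pairs, and 5 pairs had opposite and 5 the same sign. Lars with Lars2 (0.56 and 1.59) is 1 of these same-sign pairs, with the mitochondrial member higher. Without clone19 replicate 3 the Lars2 value was -0.16 (adjusted p = 0.423, edgeR). In Rec against Fh1_fl_fl the cytosolic member was the higher one in 16 pairs, with 2 opposite pairs, Iars with Iars2 and Wars with Wars2, and 9 of the same sign. Hars and Hars2 share 198 bases at their 5′ ends on opposite strands.

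Rec against Fh1_fl_fl compares the re-expressing cells with those labelled wild type. Here 18 of 20 cytosolic members were higher and 1 lower, with a median log2 fold change of 0.88 (a fold of 1.84), and 9 of 17 mitochondrial members were higher and 2 lower, with a median of 0.23. The background was 33.4% of all tested genes higher and 37.4% lower (70.8% called), with a median of -0.03. All libraries lay above Fh1_fl_fl for 18 cytosolic and 7 mitochondrial members (background 27.4%) and below for 1 and 2 (30.8%). After Tars the largest rises were those of Gars (1.31), Nars (1.24), Lars (1.23) and Mars1 (1.18). Mars1, flat in clone1, thus reached 369 ± 12.8 CPM in Rec from 163 ± 16.6 in Fh1_fl_fl. Sars, the serine enzyme, was not called, at 333 ± 17.9 against 308 ± 12.9 CPM (log2 0.11, SE 0.05, adjusted p = 0.0673). It was called with DESeq2 (0.12, adjusted p = 0.0354) and without Fh1_fl_fl replicate 2, clone1 replicate 1 or 5, clone19 replicate 1 or 3, or Rec replicate 3 or 4, and took the other sign with library totals (-0.02, adjusted p = 0.766). Dars rose by 0.24 (adjusted p = 0.000341), which was lost with library totals (0.11, adjusted p = 0.0958). Among mitochondrial members Yars2 rose by 0.48 and Tars2 by 0.5. Rars2 rose by 0.19 (adjusted p = 0.0351), which was lost without Fh1_fl_fl replicate 1 (0.19, adjusted p = 0.0577) or Fh1_fl_fl replicate 2 (0.17, adjusted p = 0.0861) and with library totals (0.06, adjusted p = 0.52). Ears2 rose by 0.39 (adjusted p = 0.00473), also lost with library totals (0.26, adjusted p = 0.0561). Iars2, for isoleucine, fell by 0.33 and was the other mitochondrial member beside Wars2 to fall.

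Rec against each clone compares the re-expressing cells with cells labelled Fh1 deletion. The clone from which Rec was made is not given, so these are differences between lines. Against clone1, 10 cytosolic members were higher and 7 lower (median 0.17), and 7 mitochondrial members were higher and 5 lower (median 0.02), where 39.7% of all genes were higher and 38.1% lower (77.9% called) with a median of 0.01. Against clone19, 10 cytosolic members were higher and 5 lower (median 0.16), and 7 mitochondrial members were higher and 6 lower (median 0.07), where 35.8% of all genes were higher and 38% lower (73.8% called) with a median of -0.02. The cytosolic counts lie nearer to these shares than in the comparisons with Fh1_fl_fl. Every Rec library lay above every clone1 library for 10 cytosolic and 6 mitochondrial members (31.9% of all genes) and below for 7 and 5 (31%). Against clone19 the libraries lay wholly above for 9 and 6 (27.9%) and wholly below for 4 and 4 (29.7%). Both comparisons use the same Rec libraries, and each clone is also a side of its comparison with Fh1_fl_fl.

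Members went separate ways in Rec. Hars, Kars, Lars, Rars, Tars and Vars, which rose in each clone, were higher still in Rec than in either clone: Lars had 174 ± 12.2, 343 ± 14.2, 257 ± 8.98 and 408 ± 23.6 CPM, and Rars 185 ± 14.7, 281 ± 15.9, 246 ± 12.8 and 343 ± 12.6 CPM, in Fh1_fl_fl, clone1, clone19 and Rec. The Vars difference from clone19 (0.21, adjusted p = 0.0244) was lost without clone19 replicate 2 (0.12, adjusted p = 0.0966). Dars, Eprs, Sars and Yars were lower in Rec than in either clone. Dars had 144 ± 5.98, 242 ± 3.21, 208 ± 19.4 and 170 ± 4.19 CPM, and Sars 308 ± 12.9, 515 ± 34.3, 443 ± 19.1 and 333 ± 17.9 CPM. Aars, Farsb and Iars lay between the clones or beside one of them, with 452 ± 32.1, 695 ± 21.1, 819 ± 72.9 and 865 ± 33.3 CPM for Aars. Farsa and Mars1 were also higher in Rec than in either clone. On the mitochondrial side Vars2, Nars2, Fars2, Iars2 and Wars2 were lower in Rec than in either clone, and Cars2, Mars2, Rars2, Hars2, Tars2 and Yars2 were higher. Mars2 showed the widest difference of all, at 2.55 against clone1 (SE 0.14, adjusted p = 3.26e-15) and 1.75 against clone19 (SE 0.13, adjusted p = 4.23e-12). The Rec libraries of Hars2 overlapped with those of Fh1_fl_fl, at 40.2 ± 3.27, 30.2 ± 2.73, 31 ± 2.84 and 41.8 ± 2.24 CPM by group in the same order. Tars2 exceeded clone1 by 0.21 (adjusted p = 0.0276). This call was lost without Fh1_fl_fl replicate 1, 3 or 5, clone1 replicate 2, 4 or 5, clone19 replicate 1 or 3, or Rec replicate 2 or 4, with log2 differences of 0.16 to 0.2 and adjusted p up to 0.111.

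The clones themselves differed in 16 of 20 cytosolic members, 7 higher and 9 lower in clone19 than in clone1 (median -0.09), and in 8 of 17 mitochondrial members, 5 higher and 3 lower (median 0.03). Without clone19 replicate 3 the number of higher mitochondrial members was 3. Over all tested genes 33.5% were higher and 31.6% lower (65.1% called), with a median of 0.02. The libraries of clone19 lay wholly above those of clone1 for 3 cytosolic and 3 mitochondrial members (23% of all genes) and wholly below for 7 and 2 (22.4%). The largest cytosolic differences were those of Cars, Wars and Nars given above, and the largest mitochondrial ones, apart from Lars2, were Mars2 at 0.8 (SE 0.17, adjusted p = 0.00017), Rars2 at 0.55 (SE 0.09, adjusted p = 8.37e-06) and Fars2 at -0.51. Small differences depended on single libraries. That of Kars (0.19, adjusted p = 0.00492) was lost without clone19 replicate 1 (0.13, adjusted p = 0.0647), and that of Qars (0.16, adjusted p = 0.00637) without clone19 replicate 3 (0.12, adjusted p = 0.0544). That of Vars2 (-0.2, adjusted p = 0.0415) was lost without clone19 replicate 2 (-0.1, adjusted p = 0.171), clone1 replicate 3 (-0.21, adjusted p = 0.0519) or clone1 replicate 4 (-0.2, adjusted p = 0.0606). Those of Eprs (-0.17, adjusted p = 0.0375), Iars (0.18, adjusted p = 0.0151) and Yars2 (0.23, adjusted p = 0.0412) were less stable. Eprs lost its call without clone1 replicate 3, 4 or 5 or clone19 replicate 2, 3 or 4 (adjusted p up to 0.0915). Iars lost it without Fh1_fl_fl replicate 1 or 5, clone1 replicate 1, clone19 replicate 1 or 5, or Rec replicate 4 (up to 0.111). Yars2 lost it without Fh1_fl_fl replicate 1, 3 or 5, clone1 replicate 2, 3 or 5, clone19 replicate 1, 2, 3 or 4, or Rec replicate 2, 4 or 5 (up to 0.151).

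Within the cytosolic class the sub-lists differed in their medians. Their counts stand against 38, 36.8 and 33.4% of all tested genes higher and 40.5, 36.1 and 37.4% lower in clone1, clone19 and Rec. The 8 enzymes of the multisynthetase complex had median log2 fold changes of 0.67, 0.47 and 0.82 in clone1, clone19 and Rec against Fh1_fl_fl, with 6, 7 and 7 higher and 1 lower in each. The 12 free enzymes had medians of 0.75, 0.78 and 0.91, with 11 higher in each and 1, 1 and 0 lower. Class I enzymes (9) had medians of 0.61, 0.67 and 0.89 and class II enzymes (10) 0.75, 0.59 and 0.83, with 7, 8 and 8 and with 9, 9 and 9 higher. The 12 enzymes widely reported to respond to ATF4 had medians of 0.87, 0.88 and 1.08, with 11, 12 and 11 higher and 0 lower. The 8 other cytosolic enzymes, Dars, Farsa, Farsb, Hars, Kars, Qars, Rars and Vars, had medians of 0.41, 0.41 and 0.77, with 6, 6 and 7 higher and 2, 2 and 1 lower. These lists were drawn up with earlier results of these data known, and no test was made between them.

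Genes around the synthetases were read from the same fit. The 3 scaffold proteins of the multisynthetase complex, Aimp1, Aimp2 and Eef1e1, did not move as 1 group. Eef1e1 rose from 37.8 ± 2.42 CPM in Fh1_fl_fl to 65.3 ± 5.59 in clone1, 87.1 ± 15.6 in clone19 and 79 ± 4.98 in Rec. Aimp2 went from 51 ± 3.38 to 39.7 ± 5.55, 58.5 ± 3.02 and 87.5 ± 9.54 CPM, and Aimp1 was called in none of the comparisons with Fh1_fl_fl. Of the related enzymes outside the symbol rule, 4 of 5 passed the filter on low counts. Tarsl2, another threonyl-tRNA synthetase, had 15 ± 1.25, 50.9 ± 3.2, 30.7 ± 1.74 and 14.8 ± 1.01 CPM, so it rose by 1.76 in clone1 and 1.03 in clone19 (adjusted p = 5.87e-18 and 2.5e-12) and was at -0.02 in Rec (adjusted p = 0.86). Its levels in Rec and Fh1_fl_fl lay together, while Tars was highest in Rec. Dtd2, which removes misjoined amino acids from tRNA, had 17 ± 2.06, 4.27 ± 1, 13.6 ± 1.52 and 16.3 ± 1.47 CPM. Over these 4 genes 1 was higher and 2 lower in clone1, 1 and 3 in clone19, and 0 and 2 in Rec.

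The amidotransferase subunits Qrsl1, Gatb and Gatc, which make mitochondrial glutaminyl-tRNA, and the formyltransferase Mtfmt were all called lower in clone1 (4 of 4, where 40.5% of all tested genes were). The Qrsl1 call was marginal (-0.18, adjusted p = 0.0491), its libraries overlapped with Fh1_fl_fl, and it held under 5 of 28 alternatives. In clone19, 2 were higher and 1 lower, and in Rec 2 were higher and 1 lower. Gatb had 26.2 ± 2.73, 7.51 ± 0.502, 15.4 ± 0.603 and 11 ± 1.22 CPM and fell in all 3 groups against Fh1_fl_fl, by 1.8, 0.77 and 1.25 on the log2 scale. Of 9 mitochondrial translation factors, 4, 2 and 5 were higher and 3, 3 and 2 lower in clone1, clone19 and Rec. Of 5 cytosolic elongation factors, 1, 2 and 3 were higher and 1, 2 and 1 lower. Of 5 genes of tRNA maturation and export, 3, 2 and 4 were higher and 0 lower in each. Xpot, which exports tRNA from the nucleus, rose from 182 ± 4.75 to 211 ± 6.91, 235 ± 6.19 and 415 ± 19.1 CPM, and Rec was highest, as for Tars and Mars1. Over all tested genes 38, 36.8 and 33.4% were higher and 40.5, 36.1 and 37.4% lower in clone1, clone19 and Rec, and with 4 to 9 genes in a list most of these counts lie near those shares.

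Of 12 integrated stress response genes, 6, 8 and 8 were higher and 5, 3 and 2 lower in clone1, clone19 and Rec, with medians of 0.65, 0.74 and 0.91. The same background of 38, 36.8 and 33.4% higher and 40.5, 36.1 and 37.4% lower applies, and in clone1 the 6 higher and 5 lower genes lie near it. Atf4 rose from 286 ± 15.4 CPM in Fh1_fl_fl to 650 ± 51.2 in clone1, 510 ± 30.2 in clone19 and 858 ± 45.5 in Rec. Asns, asparagine synthetase and a target of ATF4, went from 178 ± 20.1 to 967 ± 94.6, 604 ± 30.3 and 544 ± 27.9 CPM. Trib3, a pseudokinase induced by ATF4 and CHOP, went from 17.2 ± 3.98 to 201 ± 19.2, 143 ± 5.93 and 73.7 ± 1.82 CPM. Among the kinases of the pathway none was called higher in these 3 comparisons. Eif2ak4, which encodes GCN2, was at 57.3 ± 2.1, 50 ± 5.4, 37.3 ± 3.44 and 39.9 ± 2.46 CPM, with log2 fold changes of -0.2, -0.62 and -0.52 in clone1, clone19 and Rec (adjusted p = 0.0121, 3.57e-08 and 3.83e-07). Its clone1 call was lost without Fh1_fl_fl replicate 1, clone1 replicate 1 or 5, or clone19 replicate 1 (adjusted p up to 0.136). Eif2ak3, which encodes PERK, the kinase of the endoplasmic reticulum, fell from 56.5 ± 4.33 to 46.1 ± 2.77, 45.4 ± 4.01 and 22.3 ± 3.15 CPM. Eif2ak2 fell in both clones, by 0.35 and 0.29 on the log2 scale, and Eif2ak1 and Eif2s1 fell in clone1, by 0.51 and 0.35. Eif2s1 averaged 195 ± 16, 153 ± 7.47, 229 ± 38.8 and 341 ± 19.8 CPM in Fh1_fl_fl, clone1, clone19 and Rec. Its Rec libraries (307 to 355 CPM) all lay above its Fh1_fl_fl libraries (176 to 213 CPM). Atf4 was thus highest in Rec, as Tars, Kars and Mars1 were, and Asns and Trib3 were highest in clone1, as Eprs, Gars, Nars and Cars were. These are levels in the same libraries, described here without a test of their relation.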

How the data were processed

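RNA from immortalised epithelial cells of mouse kidney was sequenced, with 20 libraries in 4 groups of 5 set by the sample titles. The authors deposited raw read counts per Ensembl gene, 1 table per library. Per the submitters' processing notes the build was GRCm38 and the tools TopHat2 2.0.4, HTSeq 0.5.3p9 and DESeq 1.10.1. Not given in the sources used here: their roles and the strand setting. Per the file headers and summary lines, reads without a unique alignment (28.83 to 40.29%), in no feature (3.28 to 6.73%) or ambiguous (0.46 to 0.65%) enter no gene, so genes with near-identical copies lose reads, and these lines stayed out of library sizes and tests.

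Symbols and coordinates came from GENCODE M21 (37607 of 39179 genes matched). The members and all gene lists (multisynthetase complex, classes, ATF4 reported, pathway lists, ribosomal RNA loci and cell markers) were chosen with earlier results of these data known. In R 4.3.3 with edgeR 4.0.16, 12671 genes passed filterByExpr, libraries were scaled by TMM, and the quasi-likelihood fit took all 20 libraries together, with 1 mean for each group. A gene is called at a Benjamini-Hochberg adjusted p under 0.05 over all tested genes. CPM use TMM-scaled library sizes, and levels between genes use counts per kilobase of exon. The fit was tested on simulated data. No replicates held identical values. The values of 1 mitochondrial member and 1 cell marker are not reported here, although counts, medians and sums over the mitochondrial class include that member.

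Values in every library are given for the 6 cytosolic and 4 mitochondrial members with the largest mean absolute fold change in the clones among those called in both with 1 sign, the 3 with the largest in Rec, and Lars2, Gars and Kars. Alternatives were other scalings, filters, DESeq2 1.42.0, the replicate number as a block, only the 2 groups compared, removal of the ribosomal RNA loci, and omission of each library. Counts and intervals cover the spread between libraries, and without molecular identifiers reads cannot stand for independent molecules.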

Additional observations from a re-analysis of the deposited data

Results flagged for a closer look

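Within groups of 5 libraries, 9 of 144 sets of values from 36 members held a library far from the other 4, and chance alone marks about 1 in 20. Clone1 replicate 1 stood apart for Farsa (71.8 CPM, highest), Iars (345 CPM, lowest) and Lars2 (1570 CPM, lowest). Clone19 replicate 2 was lowest for Farsa (62.9 CPM) and Vars2 (44.3 CPM), and clone19 replicate 3 was highest for Lars2 (29700 CPM). Fh1_fl_fl replicate 2 was highest for Tars (254 CPM), Fh1_fl_fl replicate 3 was highest for Lars2 (3550 CPM), and Rec replicate 3 was lowest for Nars (681 CPM).

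Levels differed between the 2 clones in 23 of these 36 members, by the edgeR test of clone19 against clone1 (log2, adjusted p under 0.05). With 1 clone on each side, a difference between lines and a differing effect of the deletion cannot be told apart. Of all tested genes 65.1% were called in this test, so the members differed about as often as genes in general. Clone19 was the higher clone for Aars (0.24), Farsa (0.31), Iars (0.18), Kars (0.19), Qars (0.16), Vars (0.35), Wars (0.87), Lars2 (1.31), Mars2 (0.8), Rars2 (0.55) and Yars2 (0.23). It was the lower clone for Cars (-0.95), Dars (-0.22), Eprs (-0.17), Gars (-0.46), Hars (-0.23), Lars (-0.41), Nars (-0.62), Rars (-0.19), Sars (-0.22), Fars2 (-0.51), Nars2 (-0.33) and Vars2 (-0.2). The largest positive difference, that of Lars2, was -0.48 without clone19 replicate 3.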

How the results depend on the processing

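Across 222 member comparisons, 172 were called; 26 of these lost the call under at least 1 of the alternatives, and the 3 that changed sign all belonged to Lars2. The cytosolic class kept its direction against Fh1_fl_fl under every alternative run. With library totals in place of TMM, the cytosolic medians were 0.6, 0.53 and 0.75 and the mitochondrial medians -0.12, -0.11 and 0.1 in clone1, clone19 and Rec against Fh1_fl_fl, and 3, 3 and 5 mitochondrial members were higher. In the same setting Mars1 in clone1 was at -0.05 (adjusted p = 0.458) and Sars in Rec at -0.02 (adjusted p = 0.766). For clone19 against clone1, 3 mitochondrial members were higher with DESeq2, with the replicate number as a block, with only the 2 groups compared, and with the ribosomal RNA loci removed. Lars2 was at -0.16 against Fh1_fl_fl, -0.48 against clone1 and 0.13 for Rec against clone19 without clone19 replicate 3, and at 0.1 and 0.02 for Rec against Fh1_fl_fl without Fh1_fl_fl or Rec replicate 3. Over all single omissions Lars2 reached 1.84 for clone19 against Fh1_fl_fl, 1.56 against clone1 and -1.88 for Rec against clone19. Gars was at 0.01 for Rec against clone19 without a low-count filter. Omitting 1 library at a time, the clone1 mitochondrial median ran from 0 to 0.08, the number of cytosolic members lower in clone19 from 1 to 2, the mitochondrial median of Rec against clone1 from -0.05 to 0.07, and for clone19 against clone1 the cytosolic median from -0.13 to -0.08 and the number of higher mitochondrial members from 3 to 5. Beyond those values with a shown library or construction, the cause was not tested. Same-numbered libraries of 2 groups correlated at -0.2 to 0.16 in their deviations from the group means. These values show no clear pairing by number, but low correlations cannot exclude batches shared by number. With the replicate block, Lars2 was at 0.08 for Rec against Fh1_fl_fl (adjusted p = 0.876) and lost its clone19 call (0.88, adjusted p = 0.0901). Low counts limit Mars2, Sars2 and Pars2 most, and the labels do not show whether libraries are separate cultures.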
